A study of Anethum foeniculum with 6 samples.

Results

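Among the transcripts of fennel leaves, 97 of 127290 assembled genes are described here: those that took the most counts in sunlit control leaves. They were chosen by measured values. Genes were ranked by mean CPM (counts per 1000000 counts of the library) over the 3 control libraries, the 100 highest were taken, and 3 were dropped because their mean red CPM was at least 4 times, or at most 25% of, the mean control CPM. Control levels and large red to control ratios are therefore set by the choice, and the values below are descriptions of both groups rather than evidence of a light response. Red leaves came from plants given narrow-wavelength red LED light on top of ambient sunlight, and control leaves from plants under ambient sunlight alone, with 3 libraries in each group. The plants are hydroponic leafy fennel (Foeniculum vulgare), grown in nutrient solution for their aromatic leaves, and in both groups roughly 50 mg of leaf tissue per library went into the same total RNA kit and was sequenced as paired 150 bp reads. The sources used here do not give plant age, the exact wavelength or the hours of red light. According to the labels these are biological replicates, but the number of plants behind each is not stated, so p-values measure the spread between these libraries.

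Leaf cells devote much of their messenger RNA to a small number of genes, and in well studied plants many of these encode chlorophyll-binding proteins of the photosystem antennae, the small subunit of the carbon-fixing enzyme Rubisco, and other chloroplast proteins made from nuclear genes. Red light is perceived by phytochromes, photoreceptors that switch between an inactive and an active form and through it alter the transcription of many such genes. It also drives photosynthesis directly, since chlorophyll absorbs strongly in the red. The deposited table pairs no assembled gene with a name, a sequence or a length, so which of the 97 belong to these classes was not analysed here, no sequence is shown, and the labelled tissue could not be checked against leaf markers. Without lengths the order of genes is one of counts taken, not of molecules, and in bulk leaf RNA fewer cells of a type and less RNA per cell cannot be told apart.

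Totals ran from 18839959 to 22673552 counts in red libraries and from 18040162 to 22992137 in control libraries. The 97 genes had from 0 to 618135 counts in a red library and from 1179 to 468921 in a control library. For nearly all of them counting error is therefore small beside the spread between libraries. The level that 3 counts stand for, used as a floor for counting error only, was 0.132 to 0.159 CPM in red and 0.130 to 0.166 CPM in control libraries. Red replicate 1 stood apart from the others: 7.88% of its counts lay in genes with no count in any other library, against 1.60% and 1.61% in the other red libraries and 1.77% to 2.44% in controls. Trimmed mean of M-values (TMM) scaling, which sets libraries by their shared genes, multiplied CPM by 1.13, 1.11 and 1.09 in red replicates 1, 2 and 3 and by 1.01, 0.971 and 1.03 in control replicates 1, 2 and 3. Scaling by library size alone moved the median log2 fold change of all tested genes to -0.11, so values on the CPM scale lie slightly lower in red than on the TMM scale.

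Levels of single members centred on a median of 1102, 1419 and 1513 CPM in red replicates 1, 2 and 3 and of 1596, 1438 and 1679.6 CPM in control replicates 1, 2 and 3. Members under 100 CPM numbered 8, 1 and 0 in the red libraries and 0, 0 and 2 in the controls, in the same order.

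The 97 genes together took between 21.6% and 25.0% of the counts of each library. Their summed counts were 21.6%, 24.1% and 25.0% of the total in red replicates 1, 2 and 3 and 24.2%, 23.2% and 24.1% in control replicates 1, 2 and 3. The groups overlapped, with red replicate 1 lowest and red replicate 3 highest. The mean was 23.6% ± 1.76 in red and 23.8% ± 0.541 in control (SD, n = 3 each), a difference of -0.294 percentage points, smaller than the SD of the red libraries. Without red replicate 1 the difference was 0.685. Relative to TMM effective library sizes the same counts came to 24.4%, 26.6% and 27.2% in red and 24.4%, 22.6% and 24.7% in control, a difference of 2.18, so its sign depended on the scaling. With the 3 dropped genes put back, the 100 genes took 25.5% ± 1.80 in red and 24.3% ± 0.635 in control. When the genes were chosen again without each control library in turn, 90 to 95 of the 97 were chosen again. The newly chosen sets, of 96, 98 and 98 genes, took 23.7%, 23.2% and 24.0% of the left-out control library. Their means in red were 22.8%, 24.1% and 23.5%.

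**Figure D1:**
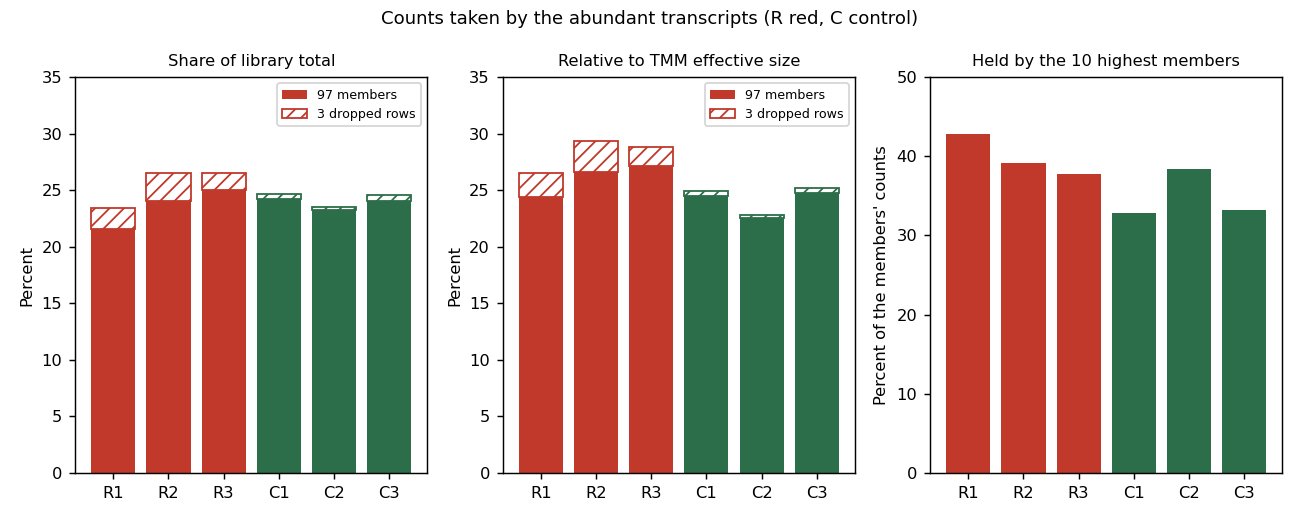
Bars give, for each library (R1 to R3 red, C1 to C3 control), the percent of the library total taken by the 97 genes with the 3 dropped genes stacked on top, the same relative to TMM effective library size, and the percent of the 97 genes' counts held by the first 10 of them. The 97 genes take 21.6% to 25.0% of the total in red and 23.2% to 24.2% in control, and the dropped genes add more in red than in control.

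Within the set, fewer genes made up most of the counts in red libraries, a comparison that no scaling between libraries can alter. The choice of members can alter it. It kept every control mean high but let red levels fall further, which can leave the red counts in fewer genes. The numbers below therefore describe the choice as well as the leaves. The first 10 of the 97, ranked by control level, held 42.8%, 39.1% and 37.8% of the set's counts in red and 32.9%, 38.4% and 33.2% in control. Red replicate 3 lay below control replicate 2, so the groups overlapped (39.9% ± 2.59 in red, 34.8% ± 3.09 in control, SD, n = 3 each). The first gene alone held 12.1%, 13.0% and 12.5% in red and 8.85%, 10.7% and 4.86% in control, with every red library higher. With that gene left out, the other 9 held 34.9%, 29.97% and 28.9% of the remaining counts in red and 26.4%, 31.0% and 29.8% in control, means of 31.3% ± 3.19 in red and 29.0% ± 2.41 in control with wide overlap. Much of the first-10 difference was thus that of 1 gene. The overlap also turned on 1 gene, the fourth, TRINITY_DN109637_c0_g1. With it left out instead, the other 9 held 37.7%, 38.4% and 37.4% of the remaining counts in red. In control they held 32.7%, 35.1% and 30.3%, and the groups did not overlap. The first 50% of the set's counts came from 12, 15 and 17 genes in red and from 22, 19 and 22 genes in control, and here the groups did not overlap. Without the first gene the numbers were 15, 18 and 21 in red and 25, 23 and 23 in control, again apart. These exclusions were chosen after the values were seen.

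TRINITY_DN294_c1_g1, first in both groups, had 26197, 31389 and 31226 CPM in red leaves and 21454, 24744 and 11698 CPM in control leaves. All red libraries lay above all controls, with control replicate 3 far below the other controls. The means were 29604 ± 2952 CPM in red and 19298 ± 6785 CPM in control (SD, n = 3 each), and the edgeR log2 fold change of red over control was 0.77 (standard error 0.36) with an adjusted p of 0.62. TRINITY_DN238_c1_g1, second in both groups, had 10391, 19303 and 18494 CPM in red leaves and 19470.1, 17089 and 20020.3 CPM in control leaves. Here 5 libraries lay close together and red replicate 1 stood well below them. TRINITY_DN955_c0_g1, ranked 4 in red and 3 in control, had 11389, 12275 and 13437 CPM in red leaves and 10268, 11603 and 7561 CPM in control leaves. Red replicate 1 lay just below control replicate 2, and the groups separated only on TMM-scaled values.

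The fourth gene, TRINITY_DN109637_c0_g1, was the least regular of the highest 10. It had 17679.9, 2583 and 1625 CPM in red leaves and 529, 11594 and 9877 CPM in control leaves. The level was high in red replicate 1 and in control replicates 2 and 3 and low in the other 3 libraries, so nearly equal means (7296 CPM in red, 7333 CPM in control) described neither group. TRINITY_DN6646_c1_g1 also varied within both groups, with 2755, 1962 and 972 CPM in red leaves and 2123, 4118 and 5349.9 CPM in control leaves. Its groups overlapped, since red replicate 1 lay above control replicate 1.

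The rest of the highest 10 differed less. TRINITY_DN923_c0_g1 had 6249, 6737 and 7076 CPM in red leaves and 7275, 5571 and 7233 CPM in control leaves. Its means were nearly equal, 6687 ± 416 CPM in red and 6693 ± 972 CPM in control, with the red libraries inside the control range. TRINITY_DN1422_c2_g1 had 5457, 7510.4 and 8399.8 CPM in red leaves and 6382, 4553 and 6268 CPM in control leaves, with overlap at red replicate 1. TRINITY_DN1756_c0_g4 had 2325, 3840.3 and 3438 CPM in red leaves and 4526, 3368 and 4027 CPM in control leaves, and TRINITY_DN13907_c0_g1 had 5185, 3227 and 5448 CPM in red leaves and 3652, 3371 and 3842 CPM in control leaves. Both overlapped between the groups. TRINITY_DN2198_c0_g1 had 4790.2, 5267 and 4414 CPM in red leaves and 4000.2, 3103 and 3983 CPM in control leaves, and all red libraries lay above all controls. Its log2 fold change was 0.53 (standard error 0.24), with an edgeR adjusted p of 0.62.

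**Figure D2:**
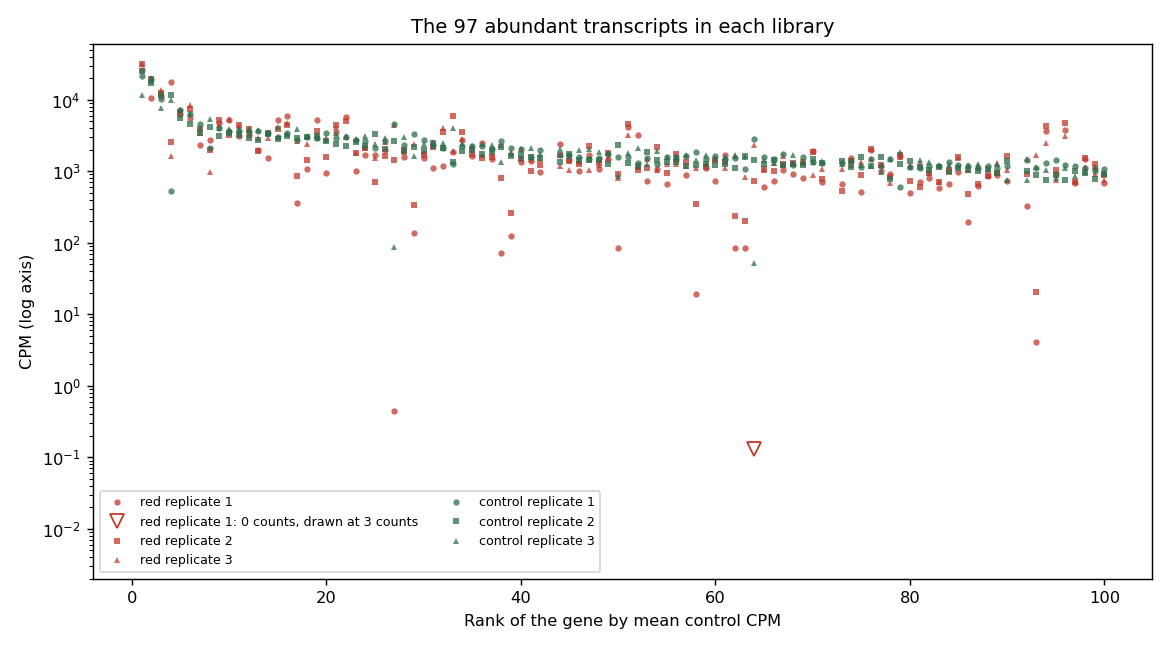
Each point is the CPM of 1 of the 97 genes in 1 library (log axis) against the rank of the gene by mean control CPM, red libraries in red and control libraries in green. Most genes form a narrow band, and the points far below it are mostly those of red replicate 1. The open triangle is a gene with 0 counts, drawn at the level of 3 counts.

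Of the 97, 75 were also among the 100 highest genes by mean red CPM and 95 among the 200 highest. By single library, 64, 67 and 83 of them were among the 100 highest of red replicates 1, 2 and 3, against 92, 86 and 88 for control replicates 1, 2 and 3. The members were chosen by control rank and trimmed by ratio, which raises the control numbers and limits how far a member can lie down the red order, so these counts describe the choice as well as the leaves. In every one of the 6 libraries 49 of the 97 were among the 100 highest. The members furthest down the order in red were TRINITY_DN4110_c0_g1, which ranked 355 in red and 63 in control, and TRINITY_DN1231_c1_g1, which ranked 241 in red and 58 in control. On the CPM scale the red to control ratio lay within 1.5-fold for 69 genes, was at least 2 for 3 and at most 0.5 for 8.

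No member passed the test across all genes. With an adjusted p under 0.05 required, edgeR's quasi-likelihood test called 0 of the 97 in either direction, beside 0% higher and 0% lower of all 36013 genes tested. At an unadjusted p under 0.05 it listed 9 members higher and 1 lower, beside 5.04% and 3.77% of all genes. DESeq2 on the same genes called 7 members higher and 1 lower, beside 2.64% and 1.91% of all genes, and gave no adjusted p for 2 members, TRINITY_DN109637_c0_g1 and TRINITY_DN28281_c0_g1. Limma-voom called 0. The median log2 fold change of the members was -0.15, beside 0.00 over all genes tested and -0.24 over the 900 genes next in control rank, and 39 members lay above 0 and 58 below. Since the rule used control levels and trimmed large ratios, nothing is read from these counts.

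On the CPM scale 11 members had every red library higher than every control and 25 had every red library lower, beside 5.88% and 12.5% of all genes tested. On TMM-scaled values the numbers were 13 and 11, beside 8.01% and 8.69%, so the larger number of lower members was not seen on that scale. All 11 members higher on the CPM scale and all 11 lower on the TMM scale were so on both. Without red replicate 3 the number of members apart was 55 of the 97, of which 13 were higher and 42 lower, beside 13.9% and 23.1% of all genes tested with the same 5 libraries.

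The 3 members at least 2-fold higher in red on the CPM scale ranked 96, 94 and 51 in control. TRINITY_DN6655_c1_g1, nearest to the upper limit of the rule, had 3766, 4647 and 3059 CPM in red leaves and 1231, 754 and 1091 CPM in control leaves. The red libraries were all well above the controls, and the means were 3824 ± 796 CPM in red and 1025 ± 245 CPM in control (SD, n = 3 each), a log2 fold change of 2.04 (standard error 0.31) with an edgeR adjusted p of 0.27. Over the alternatives run its adjusted p ranged from 3.3e-09 to 0.85. TRINITY_DN742_c16_g1 had 3694, 4301 and 2449.9 CPM in red leaves and 1307, 761 and 1039.9 CPM in control leaves, again without overlap. Its log2 fold change was 1.89 (standard error 0.34) and its edgeR adjusted p 0.27. TRINITY_DN25480_c0_g1 had 4144, 4543 and 3157 CPM in red leaves and 1569, 1307 and 1771 CPM in control leaves, a log2 fold change of 1.49 (standard error 0.27) with an edgeR adjusted p of 0.27. In all 3 genes red replicate 2 was the highest and red replicate 3 the lowest red library. TRINITY_DN6003_c1_g1 followed with 5703, 4953 and 3004 CPM in red leaves and 2964, 2266 and 3117 CPM in control leaves. On the CPM scale its red replicate 3 lay inside the control range, and the groups separated only on TMM-scaled values. DESeq2 called the first 3 of these genes and not the fourth.

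The 4 other members that DESeq2 called higher differed by less, and were picked after their values were seen. TRINITY_DN6039_c0_g1 had 5813, 4376 and 4652 CPM in red leaves and 3441, 3094 and 3351 CPM in control leaves, a log2 fold change of 0.73 (standard error 0.24) with an edgeR adjusted p of 0.41. TRINITY_DN1032_c0_g1 had 1476, 1534 and 1159 CPM in red leaves and 1098, 940.1 and 978 CPM in control leaves. TRINITY_DN2070_c0_g1 had 2689, 3500.2 and 2839 CPM in red leaves and 2218, 1924 and 2401 CPM in control leaves. All 3 had every red library above every control. TRINITY_DN84_c3_g1 had 1970.0, 2009.8 and 1496 CPM in red leaves and 1489, 1166 and 1169 CPM in control leaves, again without overlap.

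Of the 3 genes that the ratio limits removed, TRINITY_DN742_c0_g1, from the same assembled cluster as TRINITY_DN742_c16_g1, had 12690.5, 17174 and 10761 CPM in red leaves and 2420.0, 1068 and 1613 CPM in control leaves. It ranked 3 in red and 43 in control. TRINITY_DN137_c1_g2, just outside the limit with a ratio of 4.14, had 5360.0, 6907 and 4206 CPM in red leaves and 1693, 947 and 1336 CPM in control leaves. The third, TRINITY_DN16489_c0_g1, lay just beyond the lower limit with a ratio of 0.221 and had 72.1, 313 and 334 CPM in red leaves and 498, 1002 and 1754 CPM in control leaves. Just inside the limits were TRINITY_DN6655_c1_g1 with a ratio of 3.73 and TRINITY_DN4110_c0_g1 with 0.262. At the limit of 100 genes, TRINITY_DN8386_c1_g1 and TRINITY_DN4803_c1_g1 were the last inside, with means of 1096 and 775.7 CPM in red and 980.9 and 973.8 CPM in control. TRINITY_DN501_c0_g1 and TRINITY_DN109645_c1_g1 were the first outside, with means of 604.9 and 772.6 CPM in red and 973.8 and 967.5 CPM in control.

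**Figure D3:**
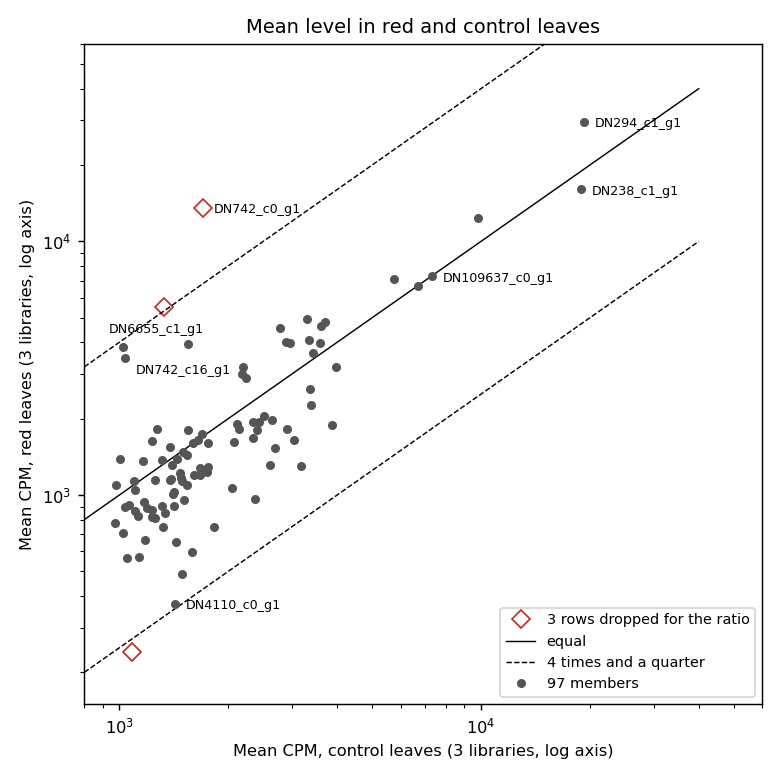
Mean CPM over 3 red libraries against mean CPM over 3 control libraries (both log axes) for the 97 genes, with the 3 dropped genes as open diamonds and dashed lines at the limits of the rule. TRINITY_DN294_c1_g1 and TRINITY_DN238_c1_g1 lie at the top on either side of equality, and TRINITY_DN6655_c1_g1 and TRINITY_DN4110_c0_g1 lie nearest to the limits.

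The members lower in red differed in how even their libraries were. TRINITY_DN77791_c0_g1, among the 3 members with the smallest control spread, had 576, 712 and 713 CPM in red leaves and 1174, 1147 and 1219 CPM in control leaves. The red libraries were close to each other and all below the controls, with means of 667 ± 78.9 CPM in red and 1180.2 ± 36.1 CPM in control (SD, n = 3 each). Its log2 fold change was -0.68 (standard error 0.19) with an edgeR adjusted p of 0.30, and it was the 1 lower member that DESeq2 called. TRINITY_DN21434_c0_g1, also steady in control, had 713, 766 and 1074 CPM in red leaves and 1318, 1320.4 and 1381 CPM in control leaves, a log2 fold change of -0.51 (standard error 0.23) with an edgeR adjusted p of 0.59. TRINITY_DN4266_c0_g1, the third with a small control spread, had 1549, 3372 and 2916 CPM in red leaves and 3372, 3271 and 3453 CPM in control leaves. Only its red replicate 1 stood far from the controls.

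The 5 members with the lowest log2 fold changes all had unequal red libraries. TRINITY_DN4110_c0_g1 had 85.2, 203 and 830.1 CPM in red leaves and 1063, 1618 and 1591 CPM in control leaves. Red replicates 1 and 2 were far below the controls and red replicate 3 only somewhat below, and the log2 fold change was -1.81 (standard error 0.79) with an edgeR adjusted p of 0.60. TRINITY_DN1231_c1_g1 had 19.4, 342 and 1108 CPM in red leaves and 1834, 1202 and 1426 CPM in control leaves, and TRINITY_DN64175_c0_g1 had 363, 846 and 2681 CPM in red leaves and 2771, 2955 and 3843 CPM in control leaves. Both had red replicate 3 nearest to the controls and red replicate 1 furthest from them. TRINITY_DN326_c0_g1 had 137, 336 and 2425 CPM in red leaves and 3309, 2174 and 1617 CPM in control leaves, with red replicate 3 inside the control range. TRINITY_DN2836_c3_g1 had 84.0, 906 and 806 CPM in red leaves and 1585, 2319 and 849.8 CPM in control leaves, where red replicate 2 overlapped control replicate 3 and red replicate 1 stood alone. The edgeR adjusted p of these 5 genes ran from 0.60 to 0.90.

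In all, 12 members varied at least 10-fold between their highest and lowest library, a limit chosen after the values were seen. They made up 12.4% of the 97, beside 5.33% of the 900 genes next in control rank and 43.9% of all genes tested, most of which have far fewer counts. In 11 of the 12 red replicate 1 was at under 10% of the highest library, and without that library 4 were left. The number was 16 at a limit of 5-fold and 8 at 20-fold. TRINITY_DN28281_c0_g1 had 4.10, 20.5 and 1669 CPM in red leaves and 1120.3, 876 and 1156 CPM in control leaves. It was lowest in red replicates 1 and 2 and highest of all in red replicate 3. TRINITY_DN2094_c4_g1 had 122, 258 and 1874 CPM in red leaves and 2111, 1605 and 1755 CPM in control leaves, and TRINITY_DN38280_c0_g1 had 85.1, 238 and 1639 CPM in red leaves and 1536, 1099.8 and 1666 CPM in control leaves. Both were low in red replicates 1 and 2, while red replicate 3 was among the controls. TRINITY_DN238_c4_g1, the second member from the cluster of TRINITY_DN238_c1_g1, had 72.4, 809.5 and 2327 CPM in red leaves and 2612, 2207 and 1346 CPM in control leaves. Its low libraries were red replicate 1 and, less so, red replicate 2.

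Both red replicates 1 and 2 stood under 50% of the lowest control, with red replicate 3 at or above it, for 5 members (5.15%), beside 2.65% of all genes tested. These were TRINITY_DN326_c0_g1, TRINITY_DN2094_c4_g1, TRINITY_DN38280_c0_g1, TRINITY_DN28281_c0_g1 and TRINITY_DN37763_c0_g1, picked after their values were seen. TRINITY_DN37763_c0_g1 had 194, 472 and 1046 CPM in red leaves and 1172, 1034 and 1201 CPM in control leaves, a smaller range than the other 4. The same pattern with red replicate 1 or red replicate 2 as the library left near the controls occurred in 0 members each, beside 1.03% and 1.01% of all genes. The mirror pattern, with 2 red libraries over 2 times the highest control and the third not above it, occurred in 0 members, beside 1.21% of all genes for red replicates 1 and 2. On TMM-scaled values 6 members had red replicates 1 and 2 low, beside 2.49% of all genes. Red replicate 1 was the lowest of the 6 libraries in 53 of the 97 members, beside 32.2% of all genes tested, and on TMM-scaled values in 48, beside 29.8%. The share of counts that red replicate 1 held in genes of its own, 7.88%, stood beside these low values, and its part in them was not tested. Members were chosen for high control levels, which favours low red values over the mirror pattern, and were trimmed by ratio. The genes tested as a whole were not chosen in this way, so nothing is read from the differences between members and all genes.

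A pair of members from different assembled clusters ran in parallel over a very wide range. TRINITY_DN3116_c7_g1 had 0.441, 1414 and 4392 CPM in red leaves and 4611, 2616 and 86.8 CPM in control leaves. TRINITY_DN41354_c0_g1 had 0, 732 and 2345 CPM in red leaves and 2779, 1431 and 51.3 CPM in control leaves. Each was high in control replicate 1 and red replicate 3, intermediate in control replicate 2 and red replicate 2, low in control replicate 3, and at or close to 0 in red replicate 1. In red replicate 1 TRINITY_DN3116_c7_g1 had 10 counts and TRINITY_DN41354_c0_g1 had 0, where 3 counts would be 0.132 CPM. The ratio of their counts was 1.93 and 1.87 in red replicates 2 and 3 and 1.66, 1.83 and 1.69 in control replicates 1, 2 and 3. Of the 66 pairs among the 12 variable members this pair had the most even ratio. The SD of that ratio was 0.15 on the log2 scale (CPM + 1), against a median of 1.91 over the pairs. In red replicate 1 the ratio rests on the added 1 CPM, since TRINITY_DN41354_c0_g1 had 0 counts there. Next came TRINITY_DN2094_c4_g1 with TRINITY_DN38280_c0_g1, with an SD of 0.21, and TRINITY_DN326_c0_g1 with TRINITY_DN2094_c4_g1, with 0.26. These pairs were picked after the values were seen, over 6 libraries that the genes share.

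**Figure D4:**
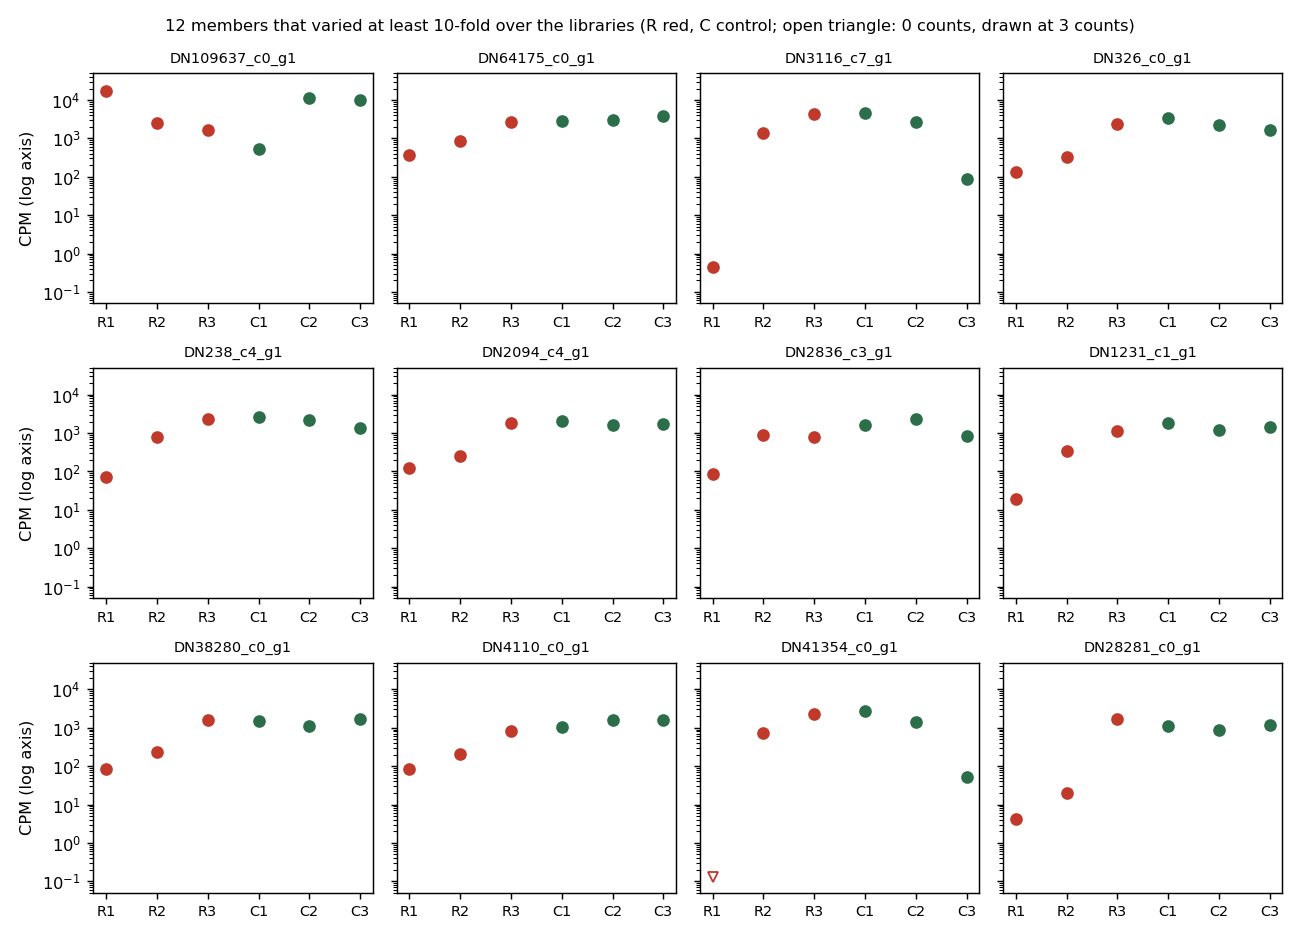
CPM (log axis) in each library (R1 to R3 red, C1 to C3 control) for the 12 members that varied at least 10-fold over the libraries. Red replicate 1 is the lowest library in all of them except TRINITY_DN109637_c0_g1, and the panels of TRINITY_DN3116_c7_g1 and TRINITY_DN41354_c0_g1 share 1 shape, with control replicate 3 low as well.

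Red libraries differed from each other more than control libraries did across most members. The coefficient of variation (CV, the SD as a percent of the mean) had a median over the 97 genes of 26.1% in red and 15.3% in control, and it was larger in red for 74 of the 97. The 900 genes next in control rank showed the same, with medians of 28.1% in red and 14.2% in control and a larger red value for 77.9%, and all genes tested had medians of 56.1% in red and 42.1% in control. Over red replicates 2 and 3 alone the median CV was 17.8% for the members and 19.7% for the 900 genes. A CV over 2 libraries does not compare directly with one over 3. Between pairs of libraries the median absolute log2 difference over the members was 0.37 to 0.59 within red and 0.18 to 0.36 within control. The red pair with the smallest value was replicates 2 and 3, which came close to the control pair with the largest, replicates 2 and 3. Red replicate 3 differed from the 3 controls by 0.29 to 0.36, red replicate 2 by 0.48 to 0.51 and red replicate 1 by 0.62 to 0.82. The biological coefficient of variation fitted by edgeR had a median of 30.3% over the members. It was nearly the same, 30.9%, over the 900 genes next in control rank, and 77.5% over all genes tested. Among the members it ran from 24.9% to 178%.

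Even levels over all libraries were common too, since 47 members varied less than 2-fold between the highest and the lowest library. Some members varied less in red than in control. TRINITY_DN3800_c0_g1 had 1646, 1706 and 1559 CPM in red leaves and 606, 1249.8 and 1846 CPM in control leaves, with a CV of 4.52% in red and 50.2% in control. TRINITY_DN294_c1_g1 had a CV of 9.97% in red and 35.2% in control. The smallest red CV, 2.02%, was that of TRINITY_DN19250_c0_g1, which had 860.0, 886 and 853 CPM in red leaves and 1177, 1061 and 1083 CPM in control leaves. All its red libraries lay below all controls, with a log2 fold change of -0.21 (standard error 0.18) and an edgeR adjusted p of 0.90. TRINITY_DN3800_c0_g1 and TRINITY_DN19250_c0_g1 were singled out after their values were seen.

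**Figure D5:**
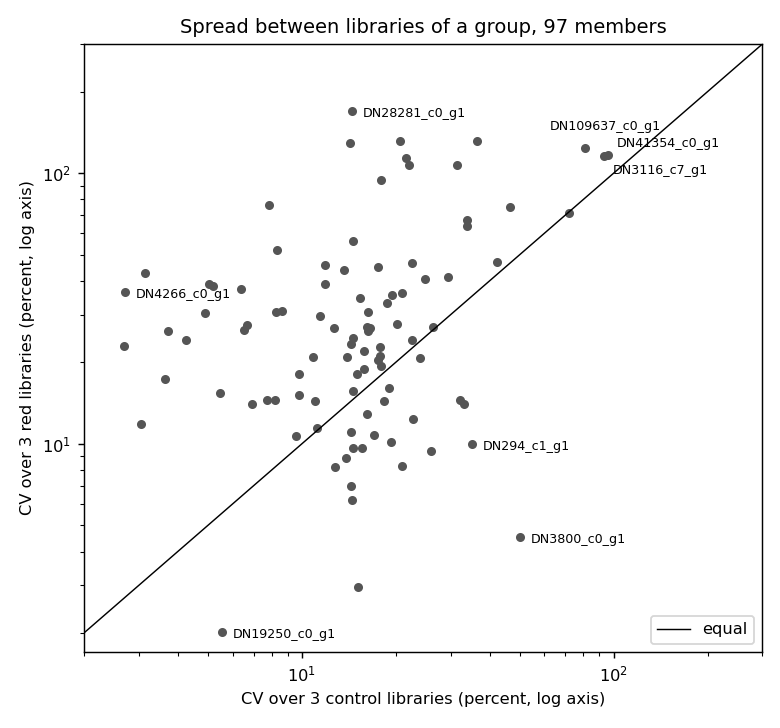
CV over the 3 red libraries against CV over the 3 control libraries for each of the 97 genes (both in percent on log axes), with the line of equality. The points lie above the line for 74 genes, with the highest red value for TRINITY_DN28281_c0_g1 (169%), and below it for genes such as TRINITY_DN294_c1_g1 and TRINITY_DN3800_c0_g1.

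The 97 genes came from 96 assembled clusters, groups of assembled genes that share a DN number and may share reads. A cluster with a single gene held 18.6% of the members, beside 51.3% of all genes tested, and the largest, that of TRINITY_DN955_c0_g1, held 27 genes. Of the 79 members in clusters of several genes, 59 held over 90% of the cluster's CPM on average over the libraries. The other genes of these clusters number 338, of which TRINITY_DN742_c0_g1 was dropped for its ratio. With it they took 2.45%, 3.36% and 2.59% of counts in red and 1.76%, 1.49% and 1.49% in control, a difference of 1.22 percentage points without overlap. The 337 genes outside the 100 highest took 1.18%, 1.65% and 1.51% of counts in red and 1.52%, 1.39% and 1.32% in control, and the ranges overlapped. Whether red libraries lay higher therefore turned on the 1 gene that the ratio limit removed, so no p-value is read for either sum. Without that gene the difference of 0.0378 percentage points turned to -0.0622 without red replicate 2 and to -0.00496 without control replicate 3. Counting only genes of the same subcluster, which share the c number too, where no gene had been dropped for its ratio, gave 0.363%, 0.404% and 0.367% in red and 0.485%, 0.417% and 0.450% in control. Red libraries were all below the controls there, but they overlapped relative to TMM effective library sizes. A two-sided exact permutation test of 3 libraries against 3 cannot give a p below 0.1, so it cannot decide. These genes also lie outside the 100 highest by control level, which the rule used, and they may share reads with the members. No p-value is therefore read for the subcluster sums either.

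Single cluster partners followed their member in some cases and not in others. The partners named here were picked after their values were seen. TRINITY_DN1231_c0_g1 had 17.9, 153 and 584 CPM in red leaves and 989, 813 and 1022 CPM in control leaves, the same order of libraries in red as its partner TRINITY_DN1231_c1_g1. TRINITY_DN2836_c3_g2 had 155, 1.83 and 75.5 CPM in red leaves and 1404, 396 and 643 CPM in control leaves, all red libraries below all controls, whereas its partner TRINITY_DN2836_c3_g1 overlapped between the groups. A further gene of that cluster, TRINITY_DN2836_c1_g1, had 4.54, 4.21 and 44.1 CPM in red leaves and 511, 389 and 395 CPM in control leaves, far lower in all red libraries. TRINITY_DN238_c90_g1 had 1419, 3437 and 2324 CPM in red leaves and 667, 562 and 795 CPM in control leaves, with all red libraries above all controls, while its partners TRINITY_DN238_c1_g1 and TRINITY_DN238_c4_g1 had no red library above all controls. Its log2 fold change was 1.96 (standard error 0.37) with an edgeR adjusted p of 0.27, so it did not pass either. Summing clusters left DN1231 with a 7.21-fold range over libraries, where its member ranged 94.3-fold, and DN2836 with 14.3-fold, where its member ranged 27.6-fold.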

How the data were processed

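Leaf RNA of 3 red-supplemented and 3 control libraries was measured by paired-end sequencing. The authors deposited 1 table of whole-number counts per assembled gene, not normalized, with no gene names; its gene IDs have the form that the Trinity assembler writes, per the file headers and row IDs. Assembler version, aligner, counting tool and filters are not stated there, so how reads shared between near-identical assembled genes were assigned is unknown. Columns were matched to libraries by the library names in the labels, and 0 columns of other samples were present.

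CPM is the count over the column total. Counts were tested in R 4.3.3 with edgeR 4.0.16 (TMM scaling, default expression filter, quasi-likelihood test, Benjamini-Hochberg adjustment over all genes tested, threshold 0.05, two-sided). DESeq2 1.42.0 and limma 3.58.1 (voom) were alternatives. The labels do not say that the replicate numbers mark a shared batch, so the numbers were not used as pairs in the main comparison. Deviations of red and control libraries with the same replicate number correlated at -0.05, -0.01 and -0.04. Alternatives covered scaling, the filter, the choice of members and leaving out each library.

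The members and lists were chosen with earlier results of these data known. Genes named are the first 10 members, the nearest on each side of the limit of 100, the 5 highest and 5 lowest log2 fold changes, the 3 highest and 3 lowest control CVs, the genes dropped, and those nearest to the ratio limits. Others are said to be picked after their values were seen.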

Additional observations from a re-analysis of the deposited data

How the results depend on the processing

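The number of genes called at an adjusted p under 0.05 by edgeR was 0, and became 254 without the filter on low counts and 1636 with DESeq2, and ran from 0 to 43 when 1 library was left out, with 43 without red replicate 3. The number of members called was 0, 2 without the filter and 8 with DESeq2, and 0 to 0 when 1 library was left out. The difference in the members' summed share, -0.294 percentage points, was 2.18 on TMM effective library sizes and 1.22 with no gene dropped, and ran from -1.02 to 0.685 when 1 library was left out. The number of members without overlap, 36, ran from 37 to 55 when 1 library was left out of the comparison, while the shares of all genes were 8.38% to 13.9% higher and 16.5% to 23.1% lower, beside 5.88% and 12.5% with 6 libraries, and it ran from 33 to 36 when 1 control was left out of the choice. The difference for the other genes of the members' clusters, 0.0378 without the gene dropped for its ratio, was 1.22 with it, -0.0725 for subclusters and -0.0328 for subclusters on TMM effective library sizes, and ran from -0.0622 to 0.171 when 1 library was left out. The median biological coefficient of variation, 30.3%, was 40.6% with the trended dispersion and ran from 27.3% to 35.2% when 1 library was left out. Leaving a library out of the comparison can only keep or raise the number of members without overlap. The cause of the other shifts was not tested. The median log2 fold change of the members stayed below 0 in the 11 alternatives run, from -0.26 to -0.08, and 67 to 79 members were among the 100 highest red genes.

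With the replicate number as a block, edgeR called 0 genes (1912 at an unadjusted p under 0.05) and 0 members (5 at an unadjusted p under 0.05), and the members' median log2 fold change was -0.19. Choosing members by the median, the limits of 5-fold and 20-fold, leaving out libraries from the 10-fold count, subclusters on TMM sizes and putting the dropped gene back into its cluster were alternatives chosen after seeing the data. With 3 libraries a group, an exact test cannot give a p below 0.1, and p-values cover the spread between these libraries.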
